A study of Mus musculus with 77 samples.

Results

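The genes Shisa6, Eomes, Id4, Nanos2, Nanos3 and Pax7, used as markers of the most primitive spermatogonia, were followed across 77 arrays of neonatal mouse testis RNA. They were chosen by name, from the literature on spermatogonial stem cells, and are 6 of 19938 genes measured. Each is read by 1 probe set that is listed with that gene alone: 10387100 for Shisa6, 10589994 for Eomes, 10404975 for Id4, 10550519 for Nanos2, 10580131 for Nanos3 and 10517715 for Pax7. All values below are log2 of the deposited RMA intensity, a scale on which 1 unit is a 2-fold difference. A probe's level cannot be set against another probe's, so each gene is compared only with itself.

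Spermatogonial stem cells sit among the undifferentiated spermatogonia of the seminiferous tubule. They either renew themselves, under GDNF from Sertoli cells acting through Ret and Gfra1, or pass through a progenitor state and, when exposed to retinoic acid (RA), become Kit-positive differentiating spermatogonia. In mice, Eomes encodes a T-box transcription factor that marks a subset of Gfra1-positive cells, and Pax7 a paired-box transcription factor, also that of muscle satellite cells, that marks rare single spermatogonia. Id4 encodes an inhibitor of DNA binding, which keeps basic helix-loop-helix factors off DNA. Nanos2 and Nanos3 encode zinc-finger RNA-binding proteins, Nanos2 repressing the RNAs of differentiation in stem cells and Nanos3 protecting primordial germ cells and persisting in undifferentiated spermatogonia. Shisa6 encodes a transmembrane adaptor, known in neurons as a partner of AMPA receptors, that has been used as a marker of a subset of Gfra1-positive spermatogonia.

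The genes are annotated as protein-coding on mouse chromosomes 11 (Shisa6), 9 (Eomes), 13 (Id4), 7 (Nanos2), 8 (Nanos3) and 4 (Pax7). RefSeq promoter sequence was matched for 5 of the 6, and not for Shisa6. The 250 bases before the annotated start are shown for Eomes, Id4 and Nanos3, which were called lower, as was Shisa6, in the Stra8 line's germ cell RNA at 8d. On GRCm38.p6 they lie at chr9:118477939-118478188 on the plus strand (Eomes), chr13:48260866-48261115 on the plus strand (Id4) and chr8:84176553-84176802 on the minus strand (Nanos3). Capitals mark matches to CANNTG, the E-box bound by helix-loop-helix factors of the kind ID4 blocks.
Eomes: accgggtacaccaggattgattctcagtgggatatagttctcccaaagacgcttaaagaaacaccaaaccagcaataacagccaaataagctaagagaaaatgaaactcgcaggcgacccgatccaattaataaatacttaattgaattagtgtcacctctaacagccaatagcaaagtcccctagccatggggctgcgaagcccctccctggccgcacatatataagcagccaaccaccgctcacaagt
Id4: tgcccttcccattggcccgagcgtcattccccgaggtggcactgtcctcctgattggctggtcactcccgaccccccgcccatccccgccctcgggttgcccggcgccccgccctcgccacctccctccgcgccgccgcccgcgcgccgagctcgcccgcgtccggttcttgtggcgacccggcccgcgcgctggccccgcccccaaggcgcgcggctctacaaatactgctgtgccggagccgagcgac
Nanos3: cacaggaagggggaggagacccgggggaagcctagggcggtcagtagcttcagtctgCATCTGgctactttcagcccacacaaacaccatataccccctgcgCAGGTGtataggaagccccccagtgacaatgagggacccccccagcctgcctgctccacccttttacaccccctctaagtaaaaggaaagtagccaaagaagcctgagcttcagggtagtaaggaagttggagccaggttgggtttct
Both strands were searched for CANNTG, for the nuclear receptor half-site AGGTCA and for the T-box site AGGTGTGA. Nanos3 held 2 E-boxes, 193 and 148 bases before its start. The Eomes, Id4, Nanos2 and Pax7 windows held 0 matches to any of the 3 motifs, and the motifs did not overlap. The Pax7 window, chr4:139832969-139833218 on the minus strand, lies inside the annotated span of the gene, which ends at 139833530. The Eomes window ends at 118478188, just inside the annotated span of Eomes, which starts at 118478186. Of 32851 mouse promoter windows of this length, 66.2% hold an E-box, 14.0% the half-site and 1.12% the T-box site.

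The arrays came from mice carrying the RiboTag allele, a ribosomal protein gene that gains an epitope tag after Cre recombination. Ngn3-cre (C57BL/6) and Stra8-cre (FVB/N) place the tag in germ cells, and Amh-cre (FVB/N) places it in Sertoli cells. Each testis sample gave immunoprecipitated (IP) RNA, which came down with tagged ribosomes, or total RNA of all cells. All animals first received WIN,18446 (BDAD), an inhibitor of RA synthesis, for 9 days. They were then killed (time 0) or injected with RA and collected at 4h, 12h, 24h, 48h, 4d, 6d or 8d (4h only in the Ngn3 line). There were 4 IP and 4 total arrays of the Ngn3 line, 16 and 23 of the Stra8 line and 16 and 14 of the Amh line. These made 35 groups of line, fraction and time. Of these, 31 held 2 arrays. Stra8 total RNA had 3 arrays for the 4h group and 4 for the time 0, 24h and 48h groups. The Amh course of total RNA is described without a 4h group. The arrays do not show which germ cells were tagged, and strain cannot be told apart from line for Ngn3. No array came from untreated animals of matching age, so RA, age and release from BDAD cannot be told apart. Each time was also a separate set of arrays, so any difference in collection or array handling between times cannot be told apart from time. In these bulk samples fewer cells of a type and less RNA per cell cannot be told apart either.

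Some arrays went against their labels or stood apart. Rarb, an RA receptor gene that RA induces, read 9.28 and 9.21 in Stra8 IP RNA at 4h, against 6.97 and 7.10 at time 0. In Amh IP RNA the arrays labelled 4h read 7.18 and 7.16 and those labelled 4d 8.58 and 8.56, against 7.07 and 7.02 at time 0. Amh total arrays labelled 4d read 8.88 and 8.82. The Amh times 4h and 4d are therefore given as labelled. Of the Stra8 total arrays labelled 4h, replicate 1 read 8.52 and the other 2 read 6.98 and 6.99. That replicate and Stra8 total 24h replicates 3 and 4 had a narrow signal range. Within a group, arrays correlated across genes with r from 0.958 to 0.999 (genes are not independent replicates). The mean log2 of 12 germ cell genes spanned 10.88 to 11.39 in Stra8 IP RNA and 7.49 to 8.85 in Amh IP RNA. The mean of 11 Sertoli cell genes spanned 8.73 to 10.89 in Stra8 IP RNA and 12.31 to 12.51 in Amh IP RNA, so Sertoli cell genes were still read in germ cell IP RNA, in varying amount. As a guide to background, the 95th percentile of 1194 olfactory and vomeronasal receptor genes was taken on each array and is called the receptor level.

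At time 0, 5 of the 6 genes were highest in germ cell IP RNA, and Shisa6 was not. Eomes and Id4 were highest in the Stra8 line: Eomes read 9.19 and 9.29 in Stra8 IP RNA, 7.99 and 8.25 in Ngn3 IP RNA, and 7.24 and 7.23 in Amh IP RNA. Nanos3 and Pax7 were highest in the Ngn3 line, where Nanos3 read 9.96 and 10.28 and Pax7 8.72 and 9.00. In Stra8 IP RNA Nanos3 read 9.59 and 9.66 and Pax7 8.56 and 8.48. Nanos2 read 7.52 and 8.19 in Ngn3 IP RNA and 7.82 and 8.04 in Stra8 IP RNA, and the arrays of these groups overlapped. Below them the order of total RNA was not resolved for Nanos2 or Pax7, whose neighbouring groups overlapped down to Amh IP RNA. Shisa6 instead read 11.40 and 11.34 in Amh IP RNA, above every array of the other groups, and was lowest in Stra8 IP RNA at 8.64 and 9.74. Ngn3 total RNA came second, at 10.25 and 10.75, and did not overlap Amh total RNA, the next by mean, but reached into the Stra8 total and Ngn3 IP arrays. Amh total, Stra8 total, Ngn3 IP and Stra8 IP RNA then overlapped from neighbour to neighbour. These readings go against Shisa6 as a marker particular to germ cells: in these arrays it read highest in the Sertoli cell fraction. Bulk IP RNA cannot show whether Shisa6 marks a subset among the germ cells.

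**Figure D1:**
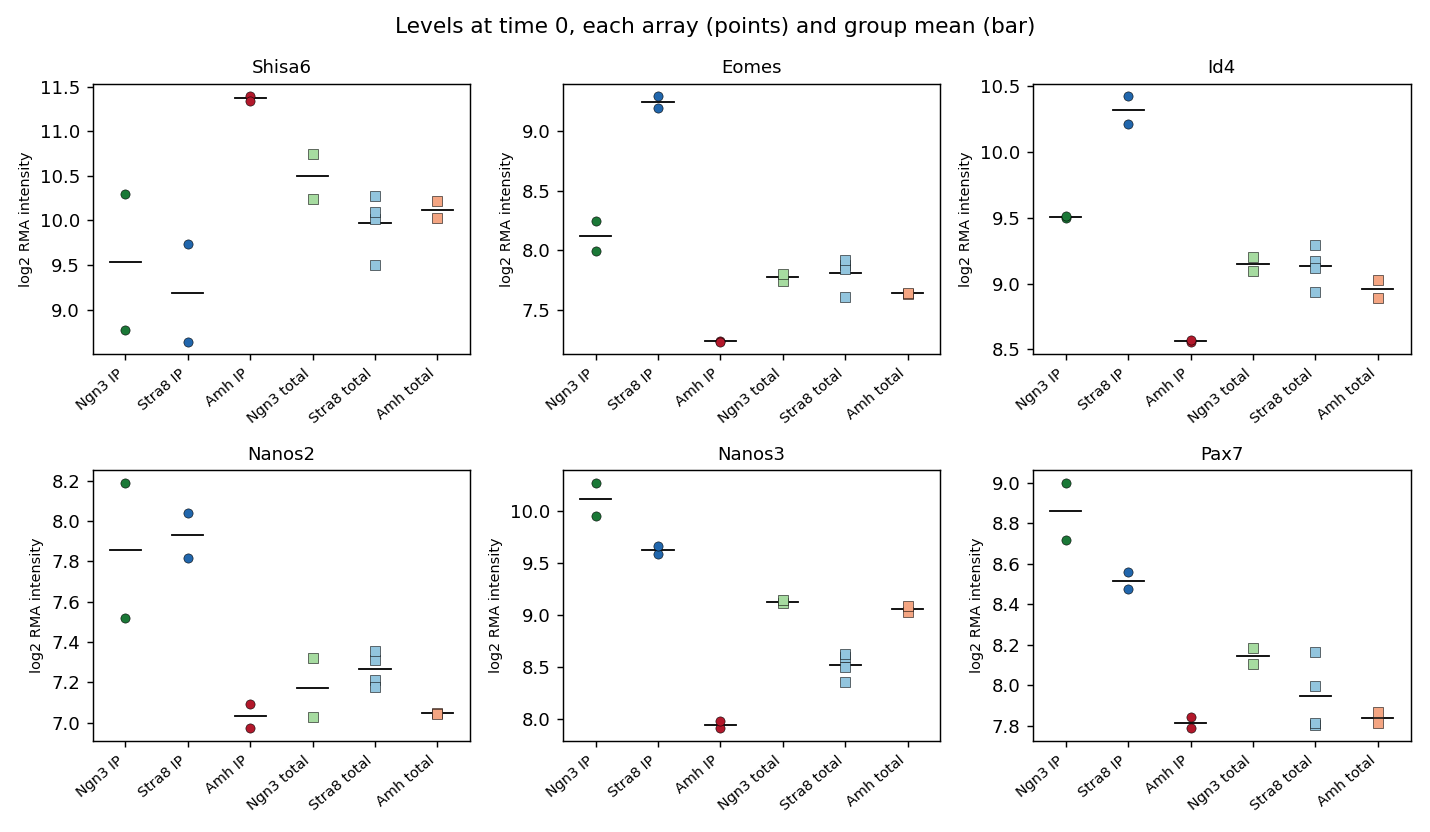
Log2 RMA intensity of each gene at time 0, on the vertical axis, in IP RNA (circles) and total RNA (squares) of the Ngn3, Stra8 and Amh lines. Points are arrays and bars are group means. Shisa6 peaks in Amh IP RNA (mean 11.37), Eomes and Id4 in Stra8 IP RNA (9.24 and 10.32), and Nanos3 and Pax7 in Ngn3 IP RNA (10.12 and 8.86).

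IP against total RNA asks whether each marker belongs to the tagged cells. In the Stra8 line at time 0, Eomes was 1.43 ± 0.14 higher in IP RNA (SE of the fit, limma, adjusted p = 4.99e-12), Id4 1.19 ± 0.14 (adjusted p = 5.08e-10) and Nanos3 1.10 ± 0.13 (adjusted p = 2.77e-10). These 3 of 6 were called higher, meaning an adjusted p under 0.05 and at least a 2-fold difference, where 6.11% of all genes were. Nanos2 (0.66) and Pax7 (0.57) stayed under the 2-fold minimum. The same 3 genes were called at 4h, where 5.59% of all genes were, with Eomes at 2.08 ± 0.15 and Id4 at 1.01 ± 0.15. Id4 lost its 4h call without the narrow-range array Stra8 total 4h replicate 1, at 0.76, or without Stra8 IP 4h replicate 1. Averaged over the 8 times, 0 of 6 were called higher against 3.84% of all genes, Eomes being at 0.96 and Nanos3 at 0.79. Eomes became a call with median centring (1.01) or quantile normalization (1.03). All 6 had an unadjusted p under 0.05 in that test by limma, the difference of Shisa6 being negative (-0.36). The share of all genes with such a p was not counted, here or in the later tests. Shisa6 was also at -0.78 at time 0, and at 48h it was the 1 of 6 called lower (-1.26 ± 0.34, adjusted p = 0.00129), with 8.3% of all genes.

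In the Ngn3 line Nanos3 had the largest IP-to-total difference of the 6 genes, followed by Pax7. Averaged over 0 and 4h, Nanos3 was 1.17 ± 0.10 higher in IP than in total RNA (adjusted p = 6.96e-14, 4 arrays each), the 1 call among 6 where 6.18% of all genes were called higher. Pax7 was at 0.85 ± 0.09, Eomes at 0.60 ± 0.12, Nanos2 at 0.54 and Id4 at 0.41. Shisa6 was on the other side, at -0.82 ± 0.28 (adjusted p = 0.00915, under 2-fold), and its IP and total arrays overlapped. The IP and total arrays did not overlap for Nanos3, Pax7, Eomes and Nanos2. How many of all genes did not overlap was not counted, here or for the other overlaps given. In the Amh line, over the mean of times, Nanos3 was at -0.56 and Eomes at -0.22, with Nanos2 at 0.14, Pax7 at 0.17 and Id4 at 0.27. At time 0 Nanos3 read 7.91 and 7.98 in Amh IP RNA, against 9.03 and 9.09 in Amh total RNA, a difference of -1.11 ± 0.15 (adjusted p = 6.03e-08). It was the 1 of 6 called lower there, with 3.41% of all genes. The difference was under 2-fold with median centring (-0.98) or quantile normalization (-0.94). Shisa6 was the 1 of 6 called higher over the mean of times (1.07 ± 0.15, adjusted p = 1e-08), with 1.1% of all genes. It lost that call without Amh IP 6d replicate 1 or 8d replicate 1, the lowest value being 0.96. The IP and total arrays overlapped at 6d and 8d and not at the other times.

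Ribosomes of germ cells were compared with those of Sertoli cells through the IP RNA of the Stra8 and Amh lines. Over the mean of 8 times, Eomes was 1.27 ± 0.06 higher (adjusted p = 1.24e-25, 16 arrays each) and Nanos3 1.18 ± 0.05 higher (adjusted p = 1.87e-26) in Stra8 IP RNA, and for neither did any array of the lines overlap. These were 2 of 6 where 7.54% of all genes were called higher. Shisa6 was the 1 of 6 called lower (-1.64 ± 0.14, adjusted p = 1.87e-15), with 9.26% of all genes. At time 0 Eomes (2.00), Id4 (1.75) and Nanos3 (1.68) made 3 of 6, with 7.1% of all genes called higher. Id4 averaged 0.25 over the times, and at 8d it read 9.34 and 9.15 in Stra8 IP RNA, against 10.16 and 10.04 in Amh IP RNA. Nanos2 exceeded the receptor level in 0 of 16 Amh IP arrays, and Eomes in 6 of 16. In Stra8 IP RNA they exceeded it in 11 and in 16 of 16 arrays. The Amh readings of Nanos2, and those of Eomes on the other Amh IP arrays, both of time 0 included, were thus not above the receptor level, so the Eomes differences from Amh IP RNA are taken against readings that cannot be told from background.

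Shisa6 had the widest course of the 6 genes. In Amh IP RNA it read 11.40 and 11.34 at time 0, 11.01 and 11.21 for label 4h, 7.59 and 7.92 at 12h, then 10.99 and 11.29 at 24h. It then read 10.57 and 10.63 at 48h, 10.52 and 10.61 for label 4d, 9.16 and 7.66 at 6d, and 8.21 and 6.87 at 8d. The gene was thus low at 12h, back near its starting level at 24h and low again at 6d and 8d, where the arrays of a pair were far apart. At 12h it was 12.2-fold lower than at time 0 (log2 -3.61 ± 0.39, adjusted p = 9.77e-10, n = 2 each), and at 6d 7.75-fold (-2.95). At 8d the difference was -3.83 (adjusted p = 2.8e-11), with 1 of the 2 arrays, at 6.87, below its receptor level of 7.19. At 24h the difference was -0.23 ± 0.39. It was the only one of the 6 genes called lower in Amh IP RNA, at 12h (0.682% of all genes), 6d (2.14%) and 8d (2.69%). No member was called lower at the labelled 4h (1.32%), at 24h (0.451%), at 48h (1%) or at the labelled 4d (0.456%). Every time of a course is set against the same time 0 arrays. Ranked from the lowest log2 difference, Shisa6 stood at 1 of 19938 genes at 12h and at 4 at 6d, a rank looked up after its values were seen. The Sertoli cell list stayed between 12.31 and 12.51 on all 16 Amh IP arrays, while Shisa6 spanned 6.87 to 11.40 on the same arrays.

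**Figure D2:**
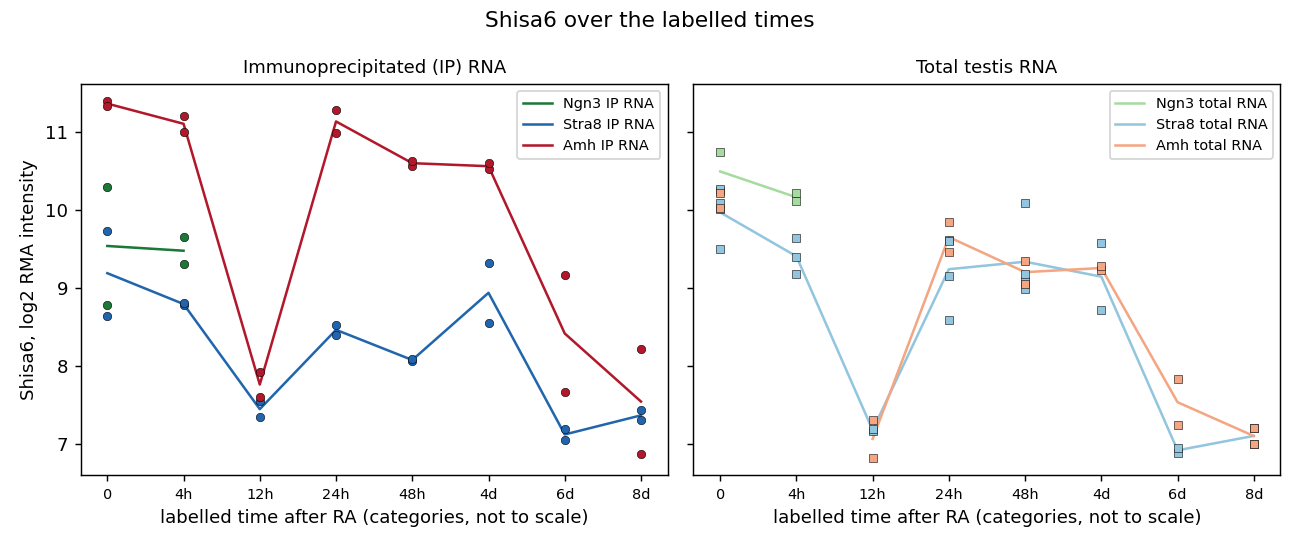
Shisa6 log2 RMA intensity (vertical axis) at each labelled time after RA (horizontal axis, categories), in IP RNA on the left and total RNA on the right. Points are arrays and lines join group means, with a gap at the Amh total 4h group. Amh IP RNA falls to 7.59 and 7.92 at 12h and stands at 10.99 and 11.29 at 24h.

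Shisa6 was also low at 12h, 6d and 8d in total RNA of both lines followed to 8d. In Amh total RNA it read 6.82 and 7.30 at 12h, 9.47 and 9.84 at 24h, 7.83 and 7.23 at 6d and 7.20 and 6.99 at 8d, against 10.22 and 10.02 at time 0. In Stra8 total RNA it read 7.16 and 7.19 at 12h, 6.88 and 6.95 at 6d and 6.99 and 7.21 at 8d, against 9.50 to 10.27 at time 0 (n = 4). Both were below every time 0 array at these times. The differences at 12h, 6d and 8d were -3.06, -2.59 and -3.02 in Amh total RNA, and -2.80, -3.06 and -2.87 in Stra8 total RNA (adjusted p of 1.6e-06 or less, limma). At its low times the gene was close to the receptor level, which it exceeded in 10 of 14 Amh total and 17 of 23 Stra8 total arrays, and no lower reading can be told from background by this probe. Among the 6 genes Shisa6 was the 1 called in Stra8 total RNA at 12h, where 0.461% of all genes were called in either direction, at 6d (3.9%) and at 8d (4.86%). None of the 6 was called there at 4h (0.386%), 24h (0.301%), 48h (0.246%) or 4d (0.988%). In Amh total RNA it was the 1 at 12h (0.512%) and 6d (1.8%), and was joined by Nanos3 at 8d (2 of 6, 2.34%). None was called lower in Amh total RNA at 24h (0.0451%), 48h (0.286%) or the labelled 4d (0.155%).

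In Stra8 IP RNA Shisa6 read 8.64 and 9.74 at time 0, 8.78 and 8.80 at 4h, 7.34 and 7.55 at 12h, 8.40 and 8.53 at 24h, then 8.05 and 8.09 at 48h. At later times it read 9.32 and 8.55 at 4d, 7.18 and 7.05 at 6d, and 7.30 and 7.43 at 8d. Its low times were those of Amh IP RNA. It fell by 1.75 ± 0.39 at 12h (adjusted p = 0.00287), 2.07 at 6d and 1.83 at 8d. At 48h its difference of -1.12 was not called, but became a call with quantile normalization (-1.18), without the dimmest genes, with the compared groups alone and without the narrow-range arrays. The 12h call was lost without Stra8 IP 0 replicate 2 (-1.20) or without Stra8 IP 12h replicate 1. The Sertoli cell list (mean log2) was 9.57 and 10.12 at time 0 and 10.89 and 9.90 at 4d, differing between replicates in the direction that Shisa6 did. At 24h it was 9.30 and 10.25, while Shisa6 was at 8.40 and 8.53. At 12h the list was 9.65 and 9.40, and at 6d it was 8.73 and 9.04. The part of Sertoli RNA in the Stra8 IP values was not tested.

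Eomes stood highest in Stra8 IP RNA before and at 4h after RA and was lower from 12h. It read 9.19 and 9.29 at time 0, 9.53 and 9.43 at 4h, 8.25 and 8.20 at 12h, then 8.84 and 8.30 at 24h. It then read 8.48 and 8.56 at 48h, 7.74 and 7.92 at 4d, 7.99 and 8.18 at 6d, and 7.78 and 8.28 at 8d. Every array from 12h on lay below the time 0 pair. It fell by 1.02 ± 0.17 at 12h (adjusted p = 3.7e-05), 1.41 at 4d (adjusted p = 5.62e-09), 1.16 at 6d and 1.21 at 8d. The differences at 24h (-0.67) and 48h (-0.72) passed the adjusted p but not the fold. The 12h call was lost without Stra8 IP 0 replicate 2 or 12h replicate 2 (-0.96), and the 8d call without 8d replicate 1. In Stra8 total RNA Eomes stayed between 7.25 and 8.31 over all times. At 4d its change in IP RNA was 1.01 ± 0.22 below its change in total RNA (interaction, adjusted p = 0.00136), though 4 of 10 fits that left out 1 array lost that call, as did median centring (-1.00). Eomes is also a gene of NK and T cells. Of 11 such markers, Cd3g, Gzma, Gzmb, Klrb1c and Ncr1 exceeded the receptor level on 0 of 77 arrays, and the list's mean was 6.64 to 7.07 in Stra8 IP RNA and 6.61 to 7.05 in Stra8 total RNA. Nkg7 exceeded it on 8 arrays, Cd8a on 30, Ifng on 52, Tbx21 on 58, Prf1 on 71 and Cd3e on 75. The part of NK and T cell RNA in the Eomes values was not tested.

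Id4 fell in germ cell IP RNA. In Sertoli cell IP RNA it was higher at 6d and 8d, after an uneven course. In Stra8 IP RNA it read 10.43 and 10.21 at time 0, 9.98 and 9.91 at 4h, 9.50 and 9.30 at 12h, then 9.65 and 9.46 at 24h. It read 9.53 and 9.73 at 48h, 9.18 and 9.12 at 4d, 9.02 and 8.89 at 6d, and 9.34 and 9.15 at 8d. No later array reached the time 0 pair. It fell by 1.17 ± 0.16 at 4d (adjusted p = 2.76e-07), 1.36 at 6d (adjusted p = 2.41e-09) and 1.08 at 8d (adjusted p = 3.77e-07). The 8d call was lost without Stra8 IP 0 replicate 1 or 8d replicate 2 (-0.97). In Amh IP RNA it read 9.91 and 9.88 at 6d and 10.16 and 10.04 at 8d, against 8.56 and 8.57 at time 0, a rise of 1.33 ± 0.16 and of 1.54 ± 0.16 (adjusted p = 8.93e-11). Before that it read 9.23 and 9.78 at 12h (a difference of 0.94, under 2-fold), 8.88 and 9.02 at 24h, and 9.07 and 9.18 at 48h. The Amh IP arrays labelled 4d read 8.28 and 8.45, below both time 0 arrays. Among the 6 genes Id4 was the 1 called higher in Amh IP RNA, at 6d (1.26% of all genes), at 8d (2.93%) and in the arrays labelled 4h (1.12, 0.622%).

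The call in the arrays labelled 4h rests on arrays whose Rarb reading went against their label. The germ cell list's mean in Amh IP RNA was 8.43 and 8.67 at 6d and 8.85 and 8.73 at 8d, against 8.08 and 8.23 at time 0. It was 8.01 and 7.96 in the arrays labelled 4h, where Id4 was also called higher. Its part in the Id4 rise was not tested. Total RNA, which mixes these cells, showed no called change: Id4 stayed between 8.44 and 9.40 in Stra8 total RNA. The change in Stra8 IP RNA was below that in Stra8 total RNA by 1.09 ± 0.22 at 4d (adjusted p = 0.000524), 1.46 at 6d (adjusted p = 2.19e-06) and 1.29 at 8d (adjusted p = 1.77e-05). Of 10 fits that left out 1 array, 1 lost the 4d call (-0.98). With Eomes at 4d, Id4 made 2 of 6 genes called lower in this interaction at 4d (0.838% of all genes), and alone 1 of 6 at 6d (1.4%) and 8d (1.6%). Between the cell types Id4 itself was not called over the mean of times. Of 6 other ID family and E protein genes, Id2 (-2.70), Id3 (-1.31) and Tcf4 (-1.53) were lower in Stra8 than in Amh IP RNA over the mean of times. Of all genes 9.26% were called lower there. The list's median was -1.03, against -0.02 for all genes. Id2 was 1.49 ± 0.24 higher in Stra8 IP RNA at 4d than at time 0, with no share of all genes called higher at 4d given here. The Sertoli cell list was 10.89 and 9.90 in Stra8 IP RNA at 4d, against 9.57 and 10.12 at time 0. The part of Sertoli RNA in the Id2 difference was not tested.

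**Figure D3:**
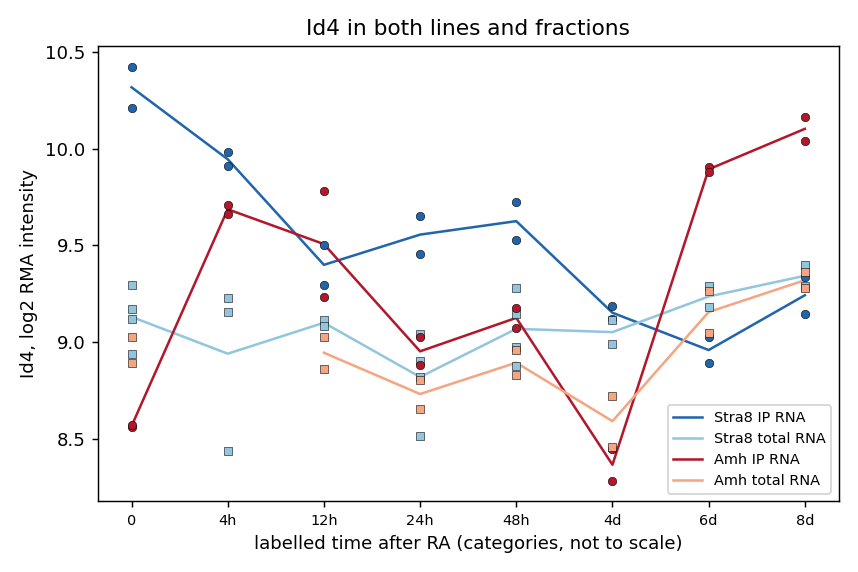
Id4 log2 RMA intensity (vertical axis) at each labelled time after RA (horizontal axis, categories) in IP RNA (circles) and total RNA (squares) of the Stra8 and Amh lines. Points are arrays and lines join group means, with a gap at Amh total 4h. Stra8 IP RNA stands at 9.34 and 9.15 at 8d, against 10.43 and 10.21 at time 0, and Amh IP RNA at 10.16 and 10.04, against 8.56 and 8.57.

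Of the NANOS genes, Nanos3 was called lower in Stra8 IP RNA at 8d, and Nanos2 at no time. Nanos3 in Stra8 IP RNA read 9.59 and 9.66 at time 0, 9.81 and 9.80 at 4h, 9.42 and 9.28 at 12h, then 8.83 and 8.51 at 24h. It read 8.79 and 8.99 at 48h, 8.81 and 9.01 at 4d, 9.28 and 8.79 at 6d, and 8.25 and 8.47 at 8d. The 24h pair lay below every earlier array (-0.96 ± 0.15, adjusted p = 1.33e-05, just under 2-fold), and the 8d pair was the lowest (-1.27 ± 0.15, adjusted p = 8.29e-10). In Amh total RNA, from another line, it read 7.85 and 7.59 at 8d, against 9.03 and 9.09 at time 0 (-1.34 ± 0.15, adjusted p = 3.62e-10). Nanos2 in Stra8 IP RNA read 7.82 and 8.04 at time 0, 7.48 and 7.31 at 24h, and 6.94 and 6.95 at 6d, the lowest pair. Its largest difference, -0.99 ± 0.15 at 6d (adjusted p = 5.87e-07), missed the 2-fold minimum. It became a call without Stra8 IP 0 replicate 1 (-1.10). Nanos2 exceeded the receptor level in 2 of 23 Stra8 total arrays and 0 of 14 Amh total arrays, so its lower readings cannot be told from background by this probe.

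Of 9 measured NANOS relatives and partners, Nanos1 was 1.09 ± 0.36 higher in Stra8 IP RNA at 48h (limma, adjusted p = 0.039) and 1.13 at 4d. No share of all genes called higher at 48h or 4d is given here. Dnd1, an RNA-binding partner of NANOS2, was 1.01 ± 0.17 lower at 8d (adjusted p = 4.9e-06), where 3.01% of all genes were called lower. Both were higher in Stra8 than in Amh IP RNA over the mean of times, by 2.34 and 1.92, where 7.54% of all genes were called higher. In the family of Shisa6, of 6 other measured genes Shisa5 was the 1 called in Stra8 IP RNA, at -1.11 ± 0.14 at 8d (3.01% of all genes). Over the whole course 10.8% of all genes were called by the F test, so these single calls are not read as a trait of either family.

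Pax7 moved least. In Stra8 IP RNA it read 8.56 and 8.48 at time 0, 8.57 and 8.58 at 4h, 8.28 and 8.10 at 12h, 8.22 and 8.03 at 6d and 8.19 and 8.28 at 8d. Every array from 12h on was below the time 0 pair, and the largest difference, -0.39 ± 0.12 at 6d, had an adjusted p of 0.0108. In Ngn3 IP RNA it read 9.01 and 9.23 at 4h and 8.72 and 9.00 at time 0, against 8.06 to 8.18 over the 4 Ngn3 total arrays. The range over all Amh IP arrays was 7.79 to 8.41. Of 8 skeletal muscle markers, Myf5 exceeded the receptor level on 0 of 77 arrays, Myh3 on 1 and Myog on 3. The list's mean was 7.37 to 7.57 in Ngn3 IP RNA and 7.29 to 7.42 in Ngn3 total RNA. Myf6 exceeded the receptor level on 24 arrays, Myod1, Ckm and Acta1 on 74 each and Tnnt3 on 75. The part of muscle RNA in the Pax7 values was not tested.

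**Figure D4:**
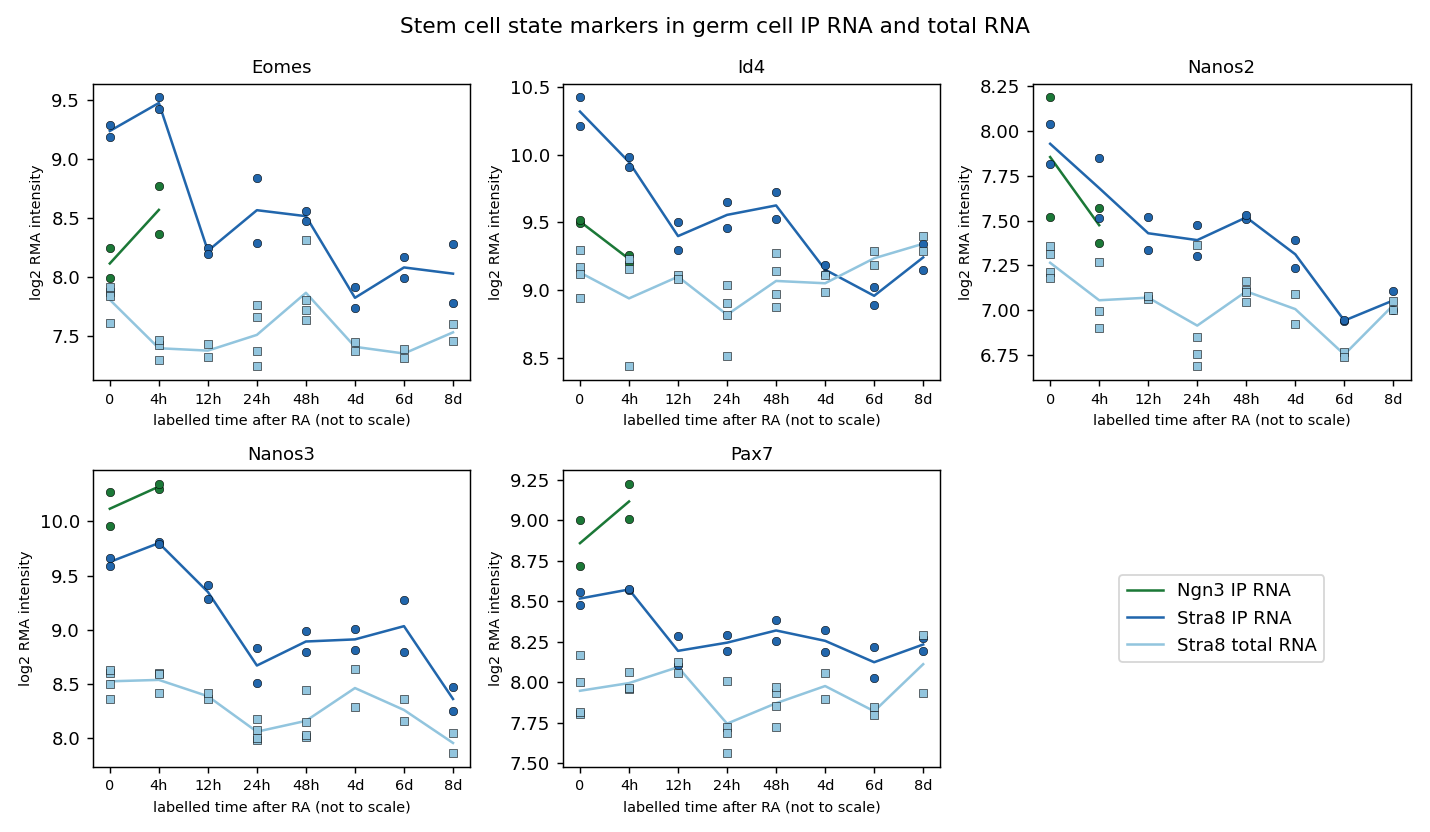
Log2 RMA intensity (vertical axes) of Eomes, Id4, Nanos2, Nanos3 and Pax7 at each labelled time after RA (horizontal axes, categories) in Ngn3 IP, Stra8 IP and Stra8 total RNA. Points are arrays and lines join group means. Each gene's Stra8 IP mean reads below its time 0 mean at 8d, from -1.27 for Nanos3 to -0.28 for Pax7.

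Counted over the course of Stra8 IP RNA, more of the 6 genes were called lower late than early. At 4h, 0 of 6 genes were called lower, where 0.01% of all genes were. Id4 alone had an unadjusted p under 0.05. At 12h it was 2 (Shisa6 and Eomes; 0.336% of all genes), at 24h 0 (0.231%) and at 48h 0 (0.547%). At 4d it was 2 (Eomes and Id4; 1.1%), at 6d 3 (Shisa6, Eomes and Id4; 2.27%) and at 8d 4 (all except Nanos2 and Pax7; 3.01%). All 6 differences were below 0 at each time from 12h on. The median difference of the 6 genes was -0.71 at 12h and -1.14 at 8d, against 0.00 for all genes at both times. In the F test over the 8 times, 4 of 6 were called (Shisa6, Eomes, Id4 and Nanos3), where 10.8% of all genes were. Nanos2 (adjusted p = 2.5e-06) and Pax7 (adjusted p = 0.0146) passed that test without reaching 2-fold.

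Of 25 other genes of undifferentiated spermatogonia measured, 3 were called lower in Stra8 IP RNA at 12h (0.336% of all genes). These were the transcription factor genes Egr2 (-1.83), Lhx1 (-1.47) and Etv5 (-1.37). The median difference of the list at 12h was -0.25, against 0.00 for all genes. At 4d 11 were called lower (1.1% of all genes), with a median difference of -0.63, against -0.04 for all genes. At 8d 15 were called lower (3.01% of all genes), with a median of -1.27, against 0.00. At 8d these included Egr2 (-2.38), Pou5f1 (-2.05), Utf1 (-2.00), Foxc2 (-1.93), Gfra1 (-1.79) and Egr4 (-1.69). None of the 25 was called higher at these times. Of 10 genes of differentiating spermatogonia, Kit (1.95) and Stra8 (2.87) were higher at 12h, where 0.14% of all genes were called higher, and at 8d 5 were, where 4.38% of all genes were, among them Stra8 (2.42), Dmrtb1 (1.75), Esx1 (1.69) and Kit (1.64), while Ccnd2 was lower (-1.10). Of 5 progenitor genes, Neurog3 (-1.73) and Upp1 (-2.31) were lower at 8d. Piwil4 of the germ cell list was lower by 1.82 and Tex101 higher by 1.43 at that time, so germ cell genes did not all move one way.

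Whether both germ cell drivers recover the same markers was addressed by Ngn3 against Stra8 IP RNA. Eomes was lower in the Ngn3 line over the mean of 0 and 4h (-1.01 ± 0.12, adjusted p = 1.03e-08, 4 arrays each), the 1 call of 6 where 0.135% of all genes were called lower. At 4h it read 8.77 and 8.37 in Ngn3 IP RNA, against 9.53 and 9.43 in Stra8 IP RNA. The call was lost in 4 of 8 fits that left out 1 array, where the difference ranged from -1.12 to -0.91. Id4 was at -0.76 ± 0.12 and, in the other direction, Nanos3 at 0.51 ± 0.10 and Pax7 at 0.44 ± 0.09, all with an adjusted p under 0.05 and none 2-fold. The arrays of the lines did not overlap for Eomes, Id4, Nanos3 or Pax7, with no count over all genes to set beside this. The IP-to-total difference, which each line sets against its own total RNA, was 1.16 ± 0.16 smaller for Eomes in the Ngn3 line (adjusted p = 1.26e-06). It was the 1 of 6 called lower, with 0.211% of all genes. Of the 25 other undifferentiated genes, Egr2 (-1.98), Gfra1 (-1.83), Etv5 (-1.80) and Foxc2 (-1.38) were also lower in Ngn3 IP RNA. Dmrtb1 of the differentiating list was higher (1.33), with no share of all genes called higher in Ngn3 against Stra8 IP RNA given here.

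At 4h after RA none of the 6 was called in Ngn3 IP RNA, where 0.311% of all genes were called in either direction, or in Ngn3 total RNA, where 0.301% were. Unadjusted p-values under 0.05 were found by limma for 3 members in IP RNA (Eomes 0.45, Nanos2 -0.38 and Pax7 0.26) and 1 in total RNA (Id4 -0.39). The share of all genes with such p-values was not counted. For none of the 6 was the 4h change called different between the Ngn3 and Stra8 lines by the interaction test, which called 0% of all genes in either direction. For the members 0 had an unadjusted p under 0.05, and the differences lay between -0.13 ± 0.21 (Nanos2) and 0.34 ± 0.55 (Shisa6), which does not show that the lines responded alike.

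The genes whose group means followed each marker most closely over the 35 groups are given as a description, since the points share arrays, lines and time courses. Among the 6 genes themselves, r was 0.78 between Eomes and Nanos2, 0.77 between Eomes and Nanos3 and 0.79 between Nanos2 and Pax7. It was 0.21 between Id4 and Nanos3, and between -0.32 and 0.09 for Shisa6 with the other 5. Shisa6 was followed by Ackr1 (Pearson r 0.92), which encodes an atypical chemokine receptor, Lpcat2 (0.91), a lysophospholipid acyltransferase gene, and Fstl4 (0.88). Ackr1 shared the 12h dip in Amh IP RNA, with means of 8.96 at time 0, 7.74 at 12h, 9.12 at 24h and 7.47 at 8d. Eomes was followed by Mmp9 (0.96), Car6 (0.95) and Dmrt2 (0.95), encoding a matrix metalloproteinase, a secreted carbonic anhydrase and a DM-domain transcription factor. Car6 averaged 7.85 in Stra8 IP RNA at 8d, against 10.10 at time 0, and 8.62 in Ngn3 IP RNA at time 0. Nanos3 was followed by Upp1 (0.96), Adcy10 (0.96) and Egr4 (0.95), of which Upp1 averaged 11.76 in Ngn3 IP RNA and 11.27 in Stra8 IP RNA at time 0. Nanos2 was followed by Mypop (0.93), the gene next to it on chromosome 7 in RefSeq's annotation, Slc9a4 (0.91) and Tmem30b (0.90). Pax7 was followed by Ksr2 (0.95), Pnliprp2 (0.95) and Dscaml1 (0.94), and Id4, less closely, by Tomm34, Ttc12 and Mgat4a (0.81, 0.81 and 0.80).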

How the data were processed

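RNA of testis, immunoprecipitated with tagged ribosomes (IP) or total, was amplified, labelled and hybridised to single-colour Affymetrix arrays. The deposited values are linear intensities that the authors made with RMA, per the submitters' processing notes; no version or settings are named there. The median intensity of an array ranged from 252.6 to 300.5, so the values were taken as normalized and only log2-transformed. Of 28853 probe sets, 21789 were listed with 1 gene, 1621 with several and 5443 with none; where a gene had several (999 genes), the probe set with the highest mean was kept, which left 19938 genes.

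Groups came from the labels' line, fraction and time. One limma 3.58.1 model (R 4.3.3) of group means over all 77 arrays, with intensity trend and 42 residual degrees of freedom, gave 70 comparisons; p-values are two-sided and adjusted by Benjamini-Hochberg over all genes. A call needed an adjusted p under 0.05 and a 2-fold difference. Nothing in the labels says that replicates are separate animals, so the spread behind each p-value may be technical, and the small number of arrays limits the precision. Same-numbered Amh IP and total arrays deviated together (r above 0.1) at 7 of 7 times (r 0.12 to 0.57), so they were treated as paired in the blocked alternative. Ngn3 IP and total arrays did so at 2 of 2 times (r 0.23 and 0.25) and Stra8 IP and total arrays at 4 of 8. Ngn3 and Stra8 IP arrays, which come from different lines, also did at 2 of 2 (r 0.11 and 0.25). The measure therefore does not show that arrays share animals.

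All 6 genes were described, with the 3 genes of highest correlation for each and, from other lists, called genes only, at most 6 by size. The genes, lists and tests were chosen with earlier results of these data known. Alternatives were median centring, quantile normalization, mean of probe sets, leaving out the dimmest 30% of genes, no fold minimum, a fit of the compared groups alone, a replicate block, and leaving out arrays. Promoter sequences are from RefSeq (GRCm38.p6).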

Additional observations from a re-analysis of the deposited data

Results flagged for a closer look

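Differences between groups in the size of the same contrast were tested by interaction terms in limma. The IP-to-total difference of Eomes was smaller in the Ngn3 line than in the Stra8 line (-1.16 on the log2 scale, adjusted p = 1.26e-06). The change of Eomes from time 0 to 4d was lower in Stra8 IP RNA than in Stra8 total RNA (-1.01, adjusted p = 0.00136). For Id4 the same difference of changes was -1.09 at 4d (adjusted p = 0.000524), -1.46 at 6d (adjusted p = 2.19e-06) and -1.29 at 8d (adjusted p = 1.77e-05). No change of Id4 was called in Stra8 total RNA. Id4 averaged 8.96 at 6d and 9.24 at 8d, against 10.32 at time 0, in Stra8 IP RNA, and 9.23 at 6d and 9.34 at 8d, against 9.13 at time 0, in Stra8 total RNA. No array stood far from its group for any of the 6 genes in the 18 gene-by-group tests that groups of 4 arrays allowed.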

How the results depend on the processing

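Counts here are of calls among the 6 genes, summed over the comparisons of a kind. They have no share of all genes beside them, so they describe the effect of each setting and are not read as a trait of these genes. Without the 2-fold minimum the calls numbered 26 in place of 11 for Stra8 IP times against time 0, 11 in place of 3 for Stra8 total, 11 in place of 4 for Amh total and 11 in place of 6 for Amh IP. They numbered 38 in place of 8 for Stra8 IP against total, 15 in place of 2 for Ngn3 IP against total, 22 in place of 7 for Amh IP against total, 41 in place of 20 for Stra8 against Amh IP and 11 in place of 2 for Ngn3 against Stra8 IP. For the Ngn3–Stra8 difference of IP-to-total they numbered 2 in place of 1, and for the difference of response between Stra8 IP and total 11 in place of 4. Median centring and quantile normalization each gave 4 calls for Ngn3 IP against total. Leaving out 1 array in turn gave 0 to 12 calls for Stra8 IP times, 0 to 6 for Amh IP times, 0 to 4 for Stra8 IP against total, 2 to 3 for Ngn3 IP against total, 0 to 3 for Amh IP against total, 0 to 2 for Ngn3 against Stra8 IP and 0 to 4 for the difference of response, each counted over the comparisons that array enters. No direction of a call reversed under any alternative run. Of 420 results (6 genes by 70 comparisons), 412 kept their call under median centring (3 lost, 5 gained), 412 under quantile normalization (2 lost, 6 gained), 420 with the mean of probe sets, 418 with the compared groups alone (1 lost, 1 gained) and 416 without the narrow-range arrays (2 lost, 2 gained). The filter on dim genes removed Nanos2 and left 349 of 350 results as they were. Leaving out the Stra8 total 4h group kept all 120 results that could be refitted, and leaving out the Amh groups of 4h and 4d kept all 144. A replicate block kept 418: at 24h in Stra8 IP against total, Eomes lost its call (0.86, against 1.06 without the block) and Shisa6 gained one (-1.15, against -0.78). Leaving out the narrow-range arrays, at 24h Stra8 total replicates 3 and 4, gave the same values, 0.86 and -1.15. These changes therefore do not show an effect of pairing. The block changed no call in the paired Amh arrays. Median centring moved the median of all genes in Amh IP against total by up to 0.19 (24h). Readings at or below the receptor level limit Nanos2 (above it in 11 of 16 Stra8 IP arrays), Eomes in Amh IP RNA (above it in 6 of 16) and Shisa6 at its low times.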
